A study of Rattus norvegicus with 12 samples.

Results

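The genes described here encode the proteins of the cytosolic ribosome. They were chosen by name: every gene probe of the array whose symbol began with Rpl or Rps followed by a number or the letter p, together with Rpsa, was taken, and the Rps6k kinases were left out. This gave 165 probes for 92 gene names, among 30367 probes in all. All 165 passed the filter on dim probes, as did 23796 probes of the whole array. Of them, 93 probes measured 46 proteins of the large subunit and 53 measured 31 proteins of the small subunit. The other 19 carried the names of paralogs, pseudogene-like copies or a name-alike such as Rps19bp1, which encodes a protein that binds Rps19 and is no part of the ribosome.

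Cerebellar cells of Sprague-Dawley rats of postnatal day 1 were grown as neuron-enriched cultures, and their RNA was hybridised to 12 oligonucleotide arrays with a single dye. The 6 control cultures received the solvent dimethyl sulfoxide at 0.001%, and the 6 ACE cultures received 1 µM acetamiprid, a neonicotinoid insecticide, in the same solvent from day 2 until RNA was taken at day 16 in vitro. Replicate numbers marked 6 independent culture experiments, in each of which both groups came from the same pool of cells of several pups of a litter. The comparison asks whether long exposure to ACE altered the transcripts of developing cerebellar neurons.

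A ribosome joins a small subunit, which reads the messenger RNA, to a large subunit, which links the amino acids. Nearly every cell makes these proteins in matched amounts, and their messenger RNAs are among the most abundant of a cell. Their translation is set by the mTOR kinase through a run of pyrimidines at the start of the transcript. In neurons, ribosomes in dendrites and axons also serve local protein synthesis.

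The probes were 60 bases long, and some of the results below differ between probes of the same gene. The last 30 bases of the probes concerned are therefore shown, 5′ to 3′ in the sense of the transcript, with rn4 coordinates of the whole probe from the array's design. For Rps10, the capitals mark the run that both windows share. The probes as a whole had a run of 48 bases in common, so that either can take up transcript of the gene or of its copy.
Rps10 at chr20:5849321-5849380, minus strand: attatgttgTGTTGAATAAACTTTAAAaaa
Rps10 at chr6:74839459-74839518, plus strand: TGTTGAATAAACTTTAAAgaaaaacgtgaa

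For the next probes, the capitals mark AATAAA, the signal for cleavage and polyadenylation near the 3′ end of a transcript. The Rpl8 probes came from different chromosomes, and the 3 Rps23 probes from neighbouring places of the same gene.
Rpl8 at chr7:114956280-114956339, plus strand: ggagctAATAAAgtatgtgctttggctaat
Rpl8 at chr1:185923809-185923868, minus strand: gatgcccctgctgggcgcaaagtgggtctc
Rps23 at chr2:21047736-21047795, plus strand: ggtggttaaagtagccaatgtgtctctttt
Rps23 at chr2:21047791-21047849, plus strand: aagaccaagatcataaaattttgaaaatgg
Rps23 at chr2:21047796-21047855, plus strand: aagatcataaaattttgacaatggaaacag
Rps27a at chr14:110559622-110559681, minus strand: tatgagttAATAAAgagaaggaactgatgt
Rps27a at chr14:110559660-110559719, minus strand: acttactggttcaacaaaccagaagacaag

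The ribosomal protein transcripts were at close to the same level in ACE and control cultures. Signals are given as log2 values after quantile normalisation, and differences as the mean of ACE minus control over the 6 pairs, or over the 5 complete pairs of the Rpl17l1 probe, which lacked a value on 1 array. The median difference over the 165 probes was -0.0020, beside -0.0050 over all 23796 probes kept. By sign, 81 probes (49.1%) were higher and 84 were lower in ACE, beside 47.8% higher of all probes. Under the 75th percentile shift, one of the other scalings tried, 46 (27.9%) were higher and 119 were lower, beside 34.8% higher of all probes. The differences ran from -0.18 for an Rps23 probe to 0.25 for the Rpl39l probe, and no ribosomal protein probe reached a change of 1.5-fold, beside 410 (1.72%) of all probes kept and 0 of the 1990 probes with a mean log2 signal of at least 14. The 95% confidence interval of the difference lay within 1.5-fold in either direction for 164 of the 165 probes, and within 0.2 on the log2 scale for 143. The probe whose interval was wider than 1.5-fold was not called in either direction.

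No ribosomal protein probe passed limma's test with the culture experiment as a block after Benjamini-Hochberg adjustment over all probes, and neither did any other probe. The lowest adjusted p of the whole array was 0.14, a value that the Rps10 probe on chromosome 6 shared with many other probes. At an unadjusted p under 0.05, 21 of the 165 probes were called, which was 12.7%. Over all probes kept the share was 16.6%, and over the 1990 probes with a mean log2 signal of at least 14, where 141 of the 165 lay, it was 13%. By direction, 11 probes (6.67%) were higher, beside 6.90% of all probes, and 10 (6.06%) were lower, beside 9.73%. Over the bright probes these shares were 5.43% and 7.54%, so the share of higher probes was under that of all probes and over that of the bright ones. Without the block, limma called none of the ribosomal protein probes. The exact signed-rank test, whose lowest two-sided p of 0.031 with 6 pairs needs the same sign in all of them, gave 13 higher (7.88%, beside 4.72% of all probes) and 8 lower (4.85%, beside 6.86%). In all these were 21 probes, 12.7% beside 11.6% of all probes and 13.8% of the bright ones. Shifting each array by its 75th percentile in place of quantile normalisation gave a split of 7 higher and 14 lower by limma, beside 3.48% and 14.2% of all probes. The deposited table gave 14 and 7, beside 8.62% and 8.13%. The split of all probes thus turned the same way with the scaling.

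**Figure D1:**
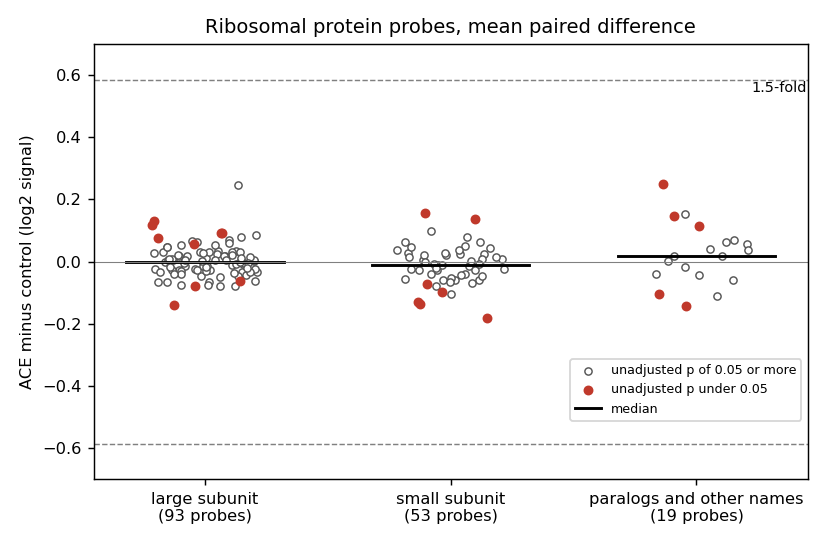
Difference between ACE and control (log2 signal, mean over pairs) for each of the 165 ribosomal protein probes, by subunit. Filled points had an unadjusted limma p under 0.05, none passed after adjustment, bars are medians, and all points lie inside the dashed lines that mark a 1.5-fold change.

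Pairs of arrays differed little from each other. The median over the ribosomal protein probes was 0.025 in pair 1, -0.013 in pair 2, 0.024 in pair 3, -0.00025 in pair 4, -0.037 in pair 5 and -0.016 in pair 6. Its sign thus differed between culture experiments. The standard deviation of a probe's 6 paired differences had a median of 0.063, beside 0.13 over all probes and 0.062 over the bright ones. The precision of the ribosomal protein probes was therefore that of other bright probes.

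Among large subunit proteins, 6 of 93 probes (6.45%, beside 6.90% of all probes) were higher and 3 (3.23%, beside 9.73%) were lower at an unadjusted p under 0.05, and the median difference was -0.0020. Rpl36a, a protein near the exit site of the ribosome, was measured by 4 probes whose differences were all positive. For the probe at chrX:122042681-122043808 the control arrays ran from 14.73 through a median of 15.11 to 15.25, and the ACE arrays from 14.95 through 15.23 to 15.32. ACE was higher in 6 of 6 pairs although the groups overlapped, and the difference was 0.12 (SE 0.029, adjusted p = 0.17 by limma). A second probe, shifted by 3 bases and thus not independent, differed by 0.092, and a probe further 3′ by 0.060. The fourth was dim, with a control mean of 5.34, and differed by 0.080. Within replicates 4 to 6 the first 2 were no longer called (0.092 and 0.086). Rpl39, a small protein of the exit tunnel, ran from 15.03 to 15.47 in control, with a median of 15.30, and from 15.22 to 15.54 in ACE, with a median of 15.44. Its difference was 0.13 (SE 0.034, adjusted p = 0.18 by limma), in the same direction in all 6 pairs. The other Rpl39 probe, nearer the 3′ end, differed by 0.019 only.

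The stalk of the large subunit, which recruits elongation factors, is built from Rplp0, Rplp1 and Rplp2. Rplp0 was among the brightest probes of the array, at 17.95 ± 0.19 (SD, n = 6) in control and 17.95 ± 0.18 in ACE, and its 2 probes differed by 0.0053 and 0.0056 between groups. Rplp1 differed by -0.016, with an interval of -0.075 to 0.044. Rplp2 was at 17.09 ± 0.16 in control and 17.15 ± 0.17 in ACE, and was higher by 0.056 in 6 of 6 pairs (adjusted p = 0.29 by limma). The value was 0.023 under the 75th percentile shift, where the unadjusted call was lost. It was lost as well with normexp, without the filter on dim probes, with the random block, with the GC trend removed (0.040), within replicates 4 to 6 (0.038) and without replicate 1, 2, 3, 4 or 6. Rpl5 and Rpl11, which bind Mdm2 when they are free of the ribosome, gave -0.019 for Rpl5 and 0.065 and -0.042 for the Rpl11 probes, the first of which was called within replicates 4 to 6 (0.13). Rpl13a, often used as a reference gene, differed by -0.012, with an interval of -0.091 to 0.067.

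Rpl8 was the gene with probes called in opposite directions. The probe on chromosome 7 was higher in ACE by 0.075 (SE 0.026) and the probe on chromosome 1 was lower by 0.063 on the log2 scale (difference -0.063, SE 0.025), each in 6 of 6 pairs and with adjusted p = 0.24 and adjusted p = 0.29 by limma. The unadjusted call of the chromosome 1 probe was lost without replicate 2, 3, 4, 5 or 6, within replicates 4 to 6, in the deposited table, with normexp and without the filter on dim probes. Control arrays of the chromosome 7 probe lay between 16.26 and 16.78 and ACE arrays between 16.35 and 16.89. Those of the chromosome 1 probe lay between 15.51 and 15.74 in control and between 15.46 and 15.73 in ACE. The chromosome 7 probe holds the polyadenylation signal and had a GC content of 40%, and the other had 55%. Rpl6, at 16.78 ± 0.088 in control and 16.87 ± 0.13 in ACE, was higher by 0.092 in 6 of 6 pairs. Rpl6, the chromosome 7 probe of Rpl8, Rpl37, Rpl12 and, below, the probes of Rps23 and Rps16 were chosen for mention after their values were seen. The remaining called probes of the large subunit were lower, by 0.14 for Rpl37 (difference -0.14) and 0.079 for Rpl12 (difference -0.079), in 5 of 6 pairs each.

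Among small subunit proteins, 2 of 53 probes (3.77%, beside 6.90% of all probes) were higher and 5 (9.43%, beside 9.73%) were lower at an unadjusted p under 0.05, and the median difference was -0.011. Rps10, a protein of the head of the subunit, had control values from 15.99 through a median of 16.28 to 16.45 at its chromosome 6 probe, and ACE values from 16.13 through 16.43 to 16.67. The groups overlapped, and in each of the 6 pairs the ACE array was higher. The difference was 0.16 (SE 0.025, interval 0.097 to 0.22), which did not pass the adjusted test. The chromosome 20 probe, which carries most of the same sequence and is printed above it, differed by 0.038 with adjusted p = 0.60 by limma. Rps14, part of the platform of the subunit, was measured by 3 probes of chromosome 18 with differences of 0.14, 0.079 and -0.059. The first ran from 15.05 to 15.62 in control and from 15.26 to 15.63 in ACE, and lost its unadjusted call without replicate 1 (0.10), without replicate 3, without replicate 4 or within replicates 4 to 6 (0.071).

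The Rps27a probe with the polyadenylation signal was lower in 6 of 6 pairs. Its control arrays ran from 14.30 through a median of 15.61 to 15.71, and its ACE arrays from 14.27 through 15.51 to 15.62. The groups overlapped, and both arrays of replicate 3 lay far under the others. The difference was -0.072 (SE 0.028, adjusted p = 0.27 by limma). Rps27a is made as a fusion with ubiquitin. Its other probe differed by -0.041 and was lower in 4 of 6 pairs. The unadjusted call of Rps27a was lost without replicate 1, 2, 4 or 5, and under the 75th percentile shift, in the deposited table, with the random block and within replicates 4 to 6 (-0.049). Lower values in 5 of 6 pairs were those of Rps23, at -0.18 for its middle probe, and of an Rps16 probe, at -0.13. The other Rps23 probes, which begin within 60 bases of it, differed by 0.026 and -0.028.

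**Figure D2:**
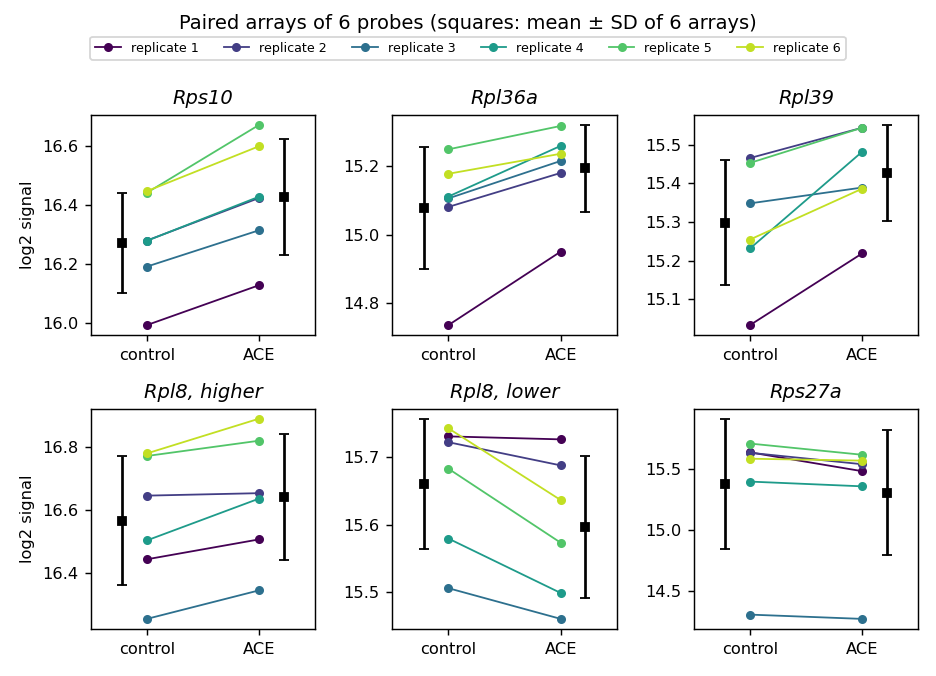
Log2 signal of 6 probes on the 12 arrays, with a line joining the control and ACE arrays of each culture experiment and squares for the mean ± SD of 6 arrays. Lines run upward for the chromosome 6 probe of Rps10, for Rpl36a and Rpl39 and for the chromosome 7 probe of Rpl8 (panel titled higher), and downward for the chromosome 1 probe of Rpl8 (panel titled lower) and for Rps27a, while the groups overlap in every panel.

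Rps6, the substrate of S6 kinase downstream of mTOR, was not called at either probe. The probe at chr5:106165769-106165828 lay between 15.67 and 15.97 in control and between 15.67 and 15.95 in ACE. Its difference was 0.0016, with an interval of -0.049 to 0.052, and that of the second probe was -0.051, which was called without replicate 2 (-0.072). Rpsa, also known as the laminin receptor, differed by -0.047 and -0.10, with intervals that held 0. The second was called within replicates 4 to 6 (-0.21), without replicate 3 (-0.15) and with the random block. Rps19, whose loss causes an inherited anaemia, differed by -0.059, -0.0014 and 0.062 at its 3 probes, the last of which lies on another chromosome and was called with normexp (0.086) and without replicate 4 (0.081).

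Paralogs and other names held 3 higher (15.8%, beside 6.90% of all probes) and 2 lower (10.5%, beside 9.73%) probes of 19, with a median difference of 0.019, and they were dimmer than the core proteins. Rpl10l, a retroposed copy of Rpl10 known for its role in male germ cells, ran from 9.90 through 10.75 to 11.09 in control and from 10.21 through 10.89 to 11.21 in ACE. It was higher by 0.15 in 6 of 6 pairs (SE 0.037, adjusted p = 0.17 by limma), and by 0.063 at its other probe. Rpl39l, the germ cell paralog of Rpl39, was at 6.06 ± 0.68 in control and 6.31 ± 0.58 in ACE. It was higher by 0.25 in 6 of 6 pairs with an interval of 0.0049 to 0.50, and without replicate 1 the difference was 0.16. Its unadjusted call was lost without replicate 1, 2, 3 or 4, without the filter on dim probes and with the GC trend removed. It was also lost under the 75th percentile shift, where the difference was 0.14, with normexp background correction, where it was 0.11, and within replicates 4 to 6, where it was 0.075.

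Rps4y2, a copy of Rps4, differed by 0.12 at one probe and by -0.11 at another that lies 108 bases further 5′. The first lost its unadjusted call within replicates 4 to 6 and with the GC trend removed (0.078). The second was called within replicates 4 to 6 (-0.20), under the 75th percentile shift, with normexp, over probes well above background on all 12 arrays and without replicate 1 or 3. Rpl22l1, a paralog that can take the place of Rpl22, differed by -0.14 at a dim probe, with a control mean of 9.40, and by 0.018 at a probe with a control mean of 15.03. The first lost its unadjusted call without replicate 2 (-0.13). Rpl36al, Rpl7l1 and Rps27l gave 0.019, -0.059 and 0.041, none of them called. Rpl7l1 was called without replicate 3 (-0.092) and differed by -0.11 within replicates 4 to 6. Rpl3l, a paralog of muscle, exceeded the background clearly on 2 control and 3 ACE arrays. Rps19bp1 was well above background on 5 control and 6 ACE arrays and differed by 0.037. Signal from copies of nearly the same sequence could not be separated for these genes.

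Probes of the same gene did not always share a direction. Of 53 names with several probes, 25 had differences of the same sign and 28 had both signs. The same count was not made for other genes of the array. Probes of 7 genes lay on more than 1 chromosome of rn4, as processed copies of a gene do: Rpl8, Rpl26, Rpl27a, Rpl35, Rpl37a, Rps10 and Rps19. Within a gene the span from the lowest to the highest difference had a median of 0.058.

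The differences followed the base composition of the probe. The 39 ribosomal protein probes with a GC content under 40% had a median difference of 0.030 and 32 of them were positive. The 34 probes with 50% and over had a median of -0.042 and 6 were positive. The medians in between were 0.025 for 40% to under 45% and -0.0076 for 45% to under 50%. Over all probes kept the medians in the same classes were 0.028, 0.0080, -0.011 and -0.050, so the pattern was not particular to the ribosomal protein probes. Over 165 probes that shared arrays and often genes, the Spearman correlation of GC content and difference was -0.50, and it was -0.30 over all probes kept and -0.42 over the bright ones. By pair it was -0.080 in pair 1 and -0.074 in pair 3, and between -0.34 and -0.57 in the other 4 pairs.

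**Figure D3:**
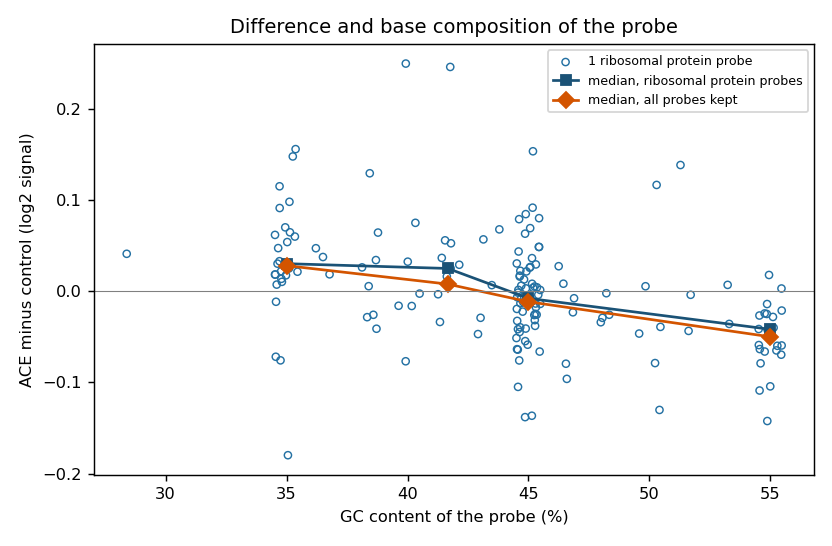
Difference between ACE and control (log2 signal) against the GC content of the probe, with a circle for each ribosomal protein probe (shifted sideways at random by up to 0.5 for visibility). Squares and diamonds are medians of 4 GC classes at their median GC, and run from 0.030 to -0.042 for the ribosomal protein probes and from 0.028 to -0.050 for all probes kept.

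Of the 11 probes called higher, 8 (72.7%) had a GC content under 45%, beside 36.4% of the 165 probes called or not. Of the 10 called lower, 8 (80.0%) had 45% or more, beside 63.6%. On the whole array these shares were 64.8% of the probes called higher, beside 43.1%, and 82.9% of those called lower, beside 56.9%. When the trend with GC content was removed from each array, a step added after the values were seen, 15 ribosomal protein probes (9.09%) were called, beside 15% of all probes. Of these, 7 were higher (4.24%, beside 6.49%) and 8 were lower (4.85%, beside 8.52%). Of the 21 probes called before, 12 were also called then. The Rps10 probe on chromosome 6 differed by 0.12, Rpl36a by 0.14 and 0.098 and Rpl39 by 0.11 after this step, and all of these stayed under an unadjusted p of 0.05. The chromosome 1 probe of Rpl8 differed by -0.012 and was no longer called.

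Position within the transcript went along with the same pattern. For 42 genes with probes on the same strand of a chromosome and at least 60 bases apart, the probe nearer the 5′ end was compared with the probe nearer the 3′ end. The 5′ probe had the lower difference in 31 genes (73.8%), with a median of -0.038. The share was 56.8% of 2572 other genes, of which 65 had both probes at a mean of at least 14 and gave 69.2%. Of the ribosomal protein genes with both probes that bright, it was 24 of 31 (77.4%). The 5′ probe had the higher GC content in 32 of the 42 genes, beside 1734 of the 2572 other genes and 44 of the 65 bright ones. With the GC trend removed, the 5′ probe was lower in 26 of the 42 genes, and other genes were not counted after that step. Rpl22l1, Rpl22, Rpl11 and Rpl27 had 5′ minus 3′ values of -0.16, -0.13, -0.11 and -0.10, while Rps14 and Rpl39 ran the other way, at 0.20 and 0.11. The probes with AATAAA, 41 in all, had a median difference of 0.029 and the 124 without it -0.012, beside 0.028 and -0.0090 over all probes kept. The part of RNA integrity or labelling in these values was not tested. Every slide held the control RNA at place 1 and the exposed RNA at place 3, so place and exposure cannot be told apart.

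Levels varied between culture experiments. The range of the 6 experiments, each as the mean of its 2 arrays, had a median of 0.47 over the ribosomal protein probes. It was 0.77 over all probes and 0.47 over the bright ones. The ribosomal protein probes deviated together: their median deviation from the mean of 12 arrays was -0.17 and -0.13 on the control and ACE arrays of replicate 1. It was 0.13 and 0.097 on those of replicate 5, and 0.12 and 0.11 on those of replicate 6. Replicates 2, 3 and 4 lay between -0.099 and 0.033. The 2 arrays of an experiment were thus close to each other. Over all probes kept, which quantile normalisation keeps alike between arrays, the same medians stayed between -0.042 and 0.046. Over the bright probes they lay between -0.019 and 0.043. The arrays of replicate 1 had their intensities extracted with an earlier version of the software than the others, and replicates 1, 2 and 3 were scanned apart from each other and from replicates 4 to 6. Within that last batch of 3 pairs, 5 probes were called higher (3.03%, beside 5.71% of all probes) and 13 lower (7.88%, beside 8.19%), and the median difference was -0.014, beside -0.0095.

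**Figure D4:**
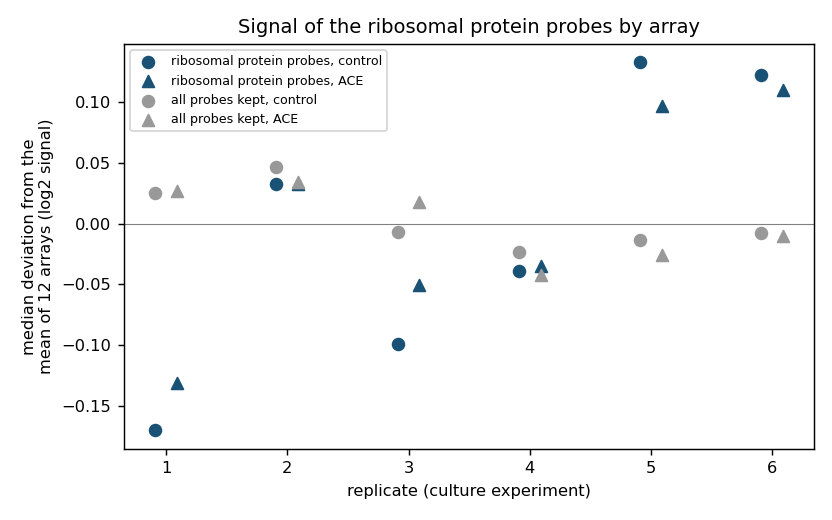
Median deviation of the ribosomal protein probes (blue) and of all probes kept (grey) from the mean of the 12 arrays (log2 signal), for the control array (circle) and the ACE array (triangle) of each culture experiment. The blue points lie lowest in replicate 1, at -0.17 and -0.13, and highest in replicates 5 and 6, at 0.097 to 0.13. Quantile normalisation keeps the grey points alike between arrays.

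Replicate 3 stood apart at certain probes in both groups. The middle Rps23 probe was at 13.54 in control and 13.37 in ACE there, and between 14.36 and 15.22 on the other 10 arrays. The Rps23 probe printed first, which ends where the middle one begins, was at its highest on the same arrays, at 17.57 and 17.73. The Rpsa probe at chr8:125104037-125104095 was at 13.85 and 13.82, and between 14.78 and 15.29 elsewhere. The Rps27a probe with the polyadenylation signal was at 14.30 and 14.27, against 15.36 to 15.71, and Rplp1 at 15.60 and 15.54, against 16.40 to 16.68. Compared with the median of the other experiments, replicate 3 was lower by at least 0.5 at 21 ribosomal protein probes (12.8%) and higher by that much at 2 (1.22%), beside 13.9% and 10.1% of all probes kept.

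Low values in replicate 3 were more frequent among probes rich in A and G. Of the 21 probes lower by at least 0.5, 12 had 60% and over of these bases, 7 had 50% to under 60% and 2 had under 50%. The first were 23.5% of the ribosomal protein probes of their class with a value in replicate 3, beside 967 (22.1%) of the 4377 probes of that class on the whole array, so the pattern was not particular to the ribosomal protein probes. In the other classes of the whole array, 1245 of 9867 and 1100 of 9552 were as low. For the 52 ribosomal protein probes with 60% and over of these bases the median of replicate 3 against the other experiments was -0.24, for the 84 between 50% and 60% it was -0.055, and for the 29 under 50% it was 0.014. All probes kept gave -0.11, 0.024 and 0.047 in these classes. The Spearman correlation of A plus G content with the deviation of replicate 3 was -0.38 over the ribosomal protein probes and -0.075 over all probes kept, and -0.48 and -0.38 where the mean signal was at least 14. Both arrays of the experiment shared these low values. Without replicate 3, 8 ribosomal protein probes were called higher (4.85%, beside 6.69% of all probes) and 11 lower (6.67%, beside 10.8%).

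**Figure D5:**
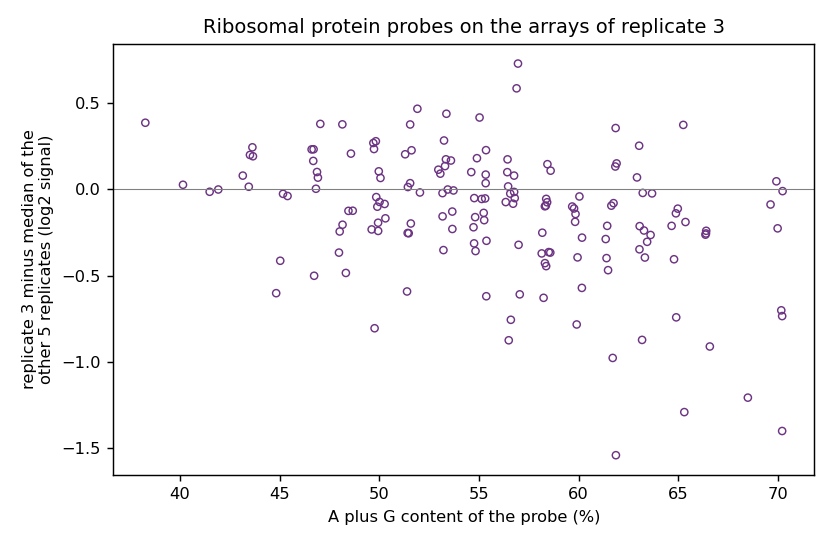
Log2 signal in replicate 3 (mean of the control and ACE arrays) minus the median of the other 5 culture experiments, against the A plus G content of each ribosomal protein probe (shifted sideways at random by up to 0.4). The lowest points are probes of Rps23 (-1.54 and -1.21), Rpsa (-1.40) and Rps27a (-1.29), with 61.7% to 70.0% of these bases.

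Genes that work with the ribosome were counted in the same way, beside 6.90% of all probes higher and 9.73% lower. The elongation and initiation factors of translation had 6 probes higher (7.23%) and 3 lower (3.61%) of 83, with a median of 0.0026. The factors of ribosome biogenesis had 6 (8.57%) and 3 (4.29%) of 70, with a median of 0.00084. Of 32 probes for mTOR and other regulators, 2 were higher (6.25%) and 1 was lower (3.12%). Differences between these lists and the ribosomal protein probes were not tested. Mtor itself differed by 0.022, Myc by -0.041, Eef1a1 by 0.0090, Eef2 by -0.049 and the nucleolar protein Npm1 by -0.026, none of them called. Eef2 was called within replicates 4 to 6 (-0.17) and differed by -0.11 without replicate 3, and Npm1 was called with the GC trend removed (-0.064). Mitochondrial ribosomal proteins, which are encoded by other genes, had 3 of 79 probes higher (3.80%) and 11 lower (13.9%), with a median of -0.020. Their median deviation ran opposite to that of the cytosolic set in replicate 5, at -0.083 against 0.11, and in replicate 6, at -0.082 against 0.11. The signs also differed in replicates 1 and 3, and were the same in replicates 2 and 4. The biogenesis list was at -0.13, 0.044 and 0.17 in replicates 1, 5 and 6, against -0.16, 0.11 and 0.11 for the cytosolic set. The translation factors and regulators had the same signs there. These lists ran the other way in replicate 2, as did the regulators in replicate 3.

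The cultures held several cell types, and in such bulk RNA fewer cells of a type and less RNA per cell cannot be told apart. Of the pan-neuronal probes 12 of 13 were well above background on all arrays, as were all probes of the astrocyte (16), oligodendrocyte (16) and microglia (14) lists and 9 of 11 for meningeal fibroblasts. Between groups, the counts of probes higher and lower were 1 and 0 for pan-neuronal genes, 1 and 0 of 8 for granule cells, 0 and 2 of 10 for Purkinje cells and 0 and 1 for astrocytes. They were 2 and 1 for oligodendrocytes, 3 and 1 for microglia, 0 and 0 for fibroblasts, and 3 and 0 of 21 for proliferation. Of the 36 probes of skeletal muscle genes, 25 were well above background on all arrays. All 36 were lower in ACE by sign, beside 12410 of the 23796 probes kept. The muscle probes had a median of -0.57, and 10 were called (27.8%). Their median by pair ran from -2.21 in pair 2 to -0.0046 in pair 4. The shares of all probes to set beside the counts of these lists are 6.90% higher and 9.73% lower. Over culture experiments the median deviation of the oligodendrocyte probes was -0.29 and -0.51 in replicates 1 and 2 and 0.35 and 0.48 in replicates 5 and 6, and that of the astrocyte probes 0.40 in replicate 1 and -0.28 and -0.46 in replicates 5 and 6. The part of cell composition in the ribosomal protein levels was not tested.

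The start sites were searched for the pyrimidine run for which these genes are known. RefSeq promoters of the GRCr8 build, from 250 bases before to 50 after the start, were matched by symbol for 70 of the 92 names. Within 20 bases on either side of the start, CTTTC was found on the strand of the gene in 30 (42.9%), beside 4.97% of 33469 promoters, and on the other strand in 1, 1.43% beside 5.07%. CCGGAAG, the core of sites for ETS factors, was found on either strand in 21 (30.0%, beside 8.75%) and AAGATGG, the core of sites for YY1, in 11 (15.7%, beside 7.01%). None of these motifs contains another. The 30 bases around the start are shown for 5 of the genes with called probes, picked as examples of both kinds, with CTTTC in capitals and 15 bases before the annotated start.
Rps10 at chr20:5700730-5700759, minus strand: gccgcgcacgccccttcCTTTCcagcctcc
Rps23 at chr2:23814502-23814531, plus strand: tgggtccttcctgcctctcttctctCTTTC
Rps14 at chr18:56498245-56498274, plus strand: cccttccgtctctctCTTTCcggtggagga
Rpl39 at chrX:121195882-121195911, minus strand: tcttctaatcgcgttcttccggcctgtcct
Rpl36a at chrX:102059434-102059463, plus strand: ccgcctataaacttccgttgctgctctagc
The windows of Rps10, Rps23 and Rps14 hold the motif and those of Rpl39 and Rpl36a do not.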

How the data were processed

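RNA of the 12 cultures was hybridised to Agilent 1-colour (Cy3) rat 4x44K arrays. The authors deposited scanner files with the processed intensity of each spot, background-subtracted by Agilent Feature Extraction (version 11.0.1.1 in the submitters' processing notes, 11.0.1.1 or 11.5.1.1 in the headers), and a table of log2 values that they quantile normalised and centred on each probe's median. Flags for outlier, saturated and well-above-background spots, other columns of the deposited files, were read too. From the intensities, flagged outlier spots were left out, log2 values were quantile normalised and spots of a probe were averaged. Probes above the 20th percentile on at least 7 arrays and measured in at least 4 pairs were kept. The test was limma 3.58.1 in R 4.3.3 with the replicate as a block, with Benjamini-Hochberg adjustment, and the exact two-sided signed-rank test (scipy). The block follows the study's methods, and arrays of the same number deviated together (correlation 0.43 to 0.91). Agreement with the deposited table was r = 0.997 to 0.999 per array, and no arrays were identical. Between 75.4% and 91.0% of probes were well above background, no spot was saturated, and the number of arrays limits the precision. The members and lists were chosen with earlier results of these data known. Named probes were up to 8 in each direction with the largest difference among those called, with the same sign in 6 pairs and well above background in the higher group, which 11 higher and 4 lower probes met, and a fixed list of genes. limma was tested on simulated data. The position, GC and A plus G descriptions were added after the values were seen. Protein sequences were not used here. Some probes that met the rule are not reported here.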

Additional observations from a re-analysis of the deposited data

Results flagged for a closer look

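In 16 of the 84 groups of 6 arrays of named probes, 1 array stood apart from the rest by Dixon's test. For independent groups chance gives about 5%, but these groups shared arrays and often genes. The share over all probes kept was not counted, so the number is not read as a trait of these probes. Of the 16, 14 were the control and ACE arrays of the same experiment at the same probe, and 2 were a control array alone. In replicate 3 the Rps27a probe read 14.30 in control and 14.27 in ACE (others 15.36 to 15.71), the Rpsa probe 13.85 and 13.82 (14.78 to 15.29), the Rplp1 probe 15.60 and 15.54 (16.40 to 16.68), and the control array of Rps4y2 12.76 (13.47 to 13.74). In replicate 1 the Rpl36a probe read 14.73 and 14.95 (15.08 to 15.32), an Rps19 probe 15.33 and 15.41 (15.78 to 15.98), Rps19bp1 3.56 and 3.24 (4.53 to 5.14), and the control array of an Rplp0 probe 17.30 (17.75 to 18.00). In replicate 6 Rpl39l read 7.42 and 7.46 (5.59 to 6.31).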

How the results depend on the processing

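No ribosomal protein probe passed the adjusted test under any of the 15 alternatives run. With the replicate as a random block 5 other probes of the array passed. At an unadjusted p, 21 probes were called by limma with the replicate block and 0 without it (0.34% of all probes), and the exact rank-sum test in place of the signed-rank test also called 0. The count ran from 12 to 23 when a culture experiment was left out: 12 without replicate 2 (9 higher, 3 lower), 12 without replicate 4 (9 and 3) and 12 without replicate 6 (8 and 4) against 23 without replicate 1 (8 and 15). The 12 were 7.27%, beside 11.8%, 14% and 12.7% of all probes in the same fits, and the 23 were 13.9%, beside 16.5%. The other planned settings that kept the block gave 17 to 26 (10.3% to 15.8%), beside 12.5% to 18.6% of all probes. In each of these settings the share of all probes was the larger. With the GC trend removed, an alternative chosen after seeing the data, 15 were called (9.09%, beside 15% of all probes). With the 75th percentile shift the signed-rank test called 11 probes in place of 21, and its share of all probes was not counted under that scaling. The median difference there was -0.032, beside -0.033 over all probes. The signed-rank test cannot pass with fewer than 6 pairs, so it was not run with a pair left out or within a scan batch. With the GC trend removed, the correlation of GC content and difference was 0.020.

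Values that changed sign were small ones that were not called. With the 75th percentile shift they were -0.021 for Rps6, -0.067 for Rps19bp1, -0.059 and -0.082 for Rplp0, -0.015 for Eef1a1 and -0.028 for Mtor. In the deposited table they were 0.0060 for Rps19 and -0.012 for Rplp0. With normexp they were -0.0033 for Rps19bp1, 0.011 for Rplp1 and 0.0028 for Rps6. Within replicates 4 to 6 they were -0.078 and -0.0066 for Rplp0, 0.0047 for Rplp1 and -0.038 for Mtor. With the GC trend removed they were -0.019 for Rpl22l1, 0.0042 for Rps19, 0.0093 for Rpl11, -0.019 for Rpl36al, -0.028 for Eef1a1 and -0.010 for Mtor. Leaving out a replicate gave ranges of -0.0019 to 0.0056 for Rps6, -0.016 to 0.012 for Rps19, -0.050 to 0.11 for Rps19bp1, -0.034 to 0.0035 for Rpl13a, -0.023 to 0.033 and -0.016 to 0.021 for Rplp0, -0.010 to 0.073 for Rpl36al, -0.012 to 0.022 for Eef1a1 and -0.0043 to 0.051 for Mtor. The cause of these changes was not tested. Of the other values of named probes, 505 kept direction and call, 71 lost their unadjusted call and 16 gained one.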
